A study of Danio rerio with 24 samples.

Results

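The arrays described here followed microRNAs in zebrafish embryos exposed to TCDD (2,3,7,8-tetrachlorodibenzo-p-dioxin, an agonist of the aryl hydrocarbon receptor) as development went on from 36 to 60 h post fertilization (hpf). They were chosen by their titles as the TCDD samples of both stages, 12 of 24 arrays in all: 3 at 60 hpf and 3 at 36 hpf on each of 2 array designs. The embryos were wild type, of the TL strain, and were exposed for 1 h at 30 hpf either to TCDD or to DMSO, its vehicle. The groups were TCDD embryos at 60 hpf, TCDD embryos at 36 hpf, and the DMSO embryos of the same 2 stages, which entered the fits and served to ask whether a stage change differed after TCDD. All 4 groups shared the strain, the handling and the solvent, so no group was left unhandled. The labels give 3 biological replicates a group. The labels give neither the dose of TCDD nor the number of embryos in a sample, nor whether the same RNA was put on both designs.

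MicroRNAs are short RNAs that guide Argonaute proteins to messenger RNAs, whose translation and stability they reduce, and target choice rests mostly on the seed near the 5′ end of the miRNA. In zebrafish, the miR-430 family is switched on when zygotic transcription starts and clears maternal messenger RNAs. The let-7 family accumulates as tissues differentiate, and many other miRNAs mark one tissue, such as miR-124 in neurons, miR-122 in hepatocytes, miR-1 in muscle and miR-451 in red blood cells.

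The RNAs on which the stage comparison turns differ by few bases, so the stretch of each miRNA that its Agilent probe pairs with is given here 5′ to 3′, as the reverse complement of the deposited probe. The probes are 13 to 23 bases long, and several stop short of the miRNA's 5′ end. In the let-7 lines, capitals mark the bases that differ from let-7a when the 3′ ends are aligned: 1 base in let-7c, let-7f and let-7g, and 2 bases in let-7b and let-7d.
let-7a: agguaguagguuguauaguu
let-7c: gguaguagguuguauGguu
let-7d: gguaguUgguuguauGguu
let-7f: gagguaguagAuuguauaguu
let-7g: ugagguaguagUuuguauaguu
let-7b: gguaguagguuguGuGguu
Signals of probes this alike can contain binding of a neighbouring family member, which was not tested. The miR-430 stretches are shown because the 4 members tested on Agilent share an 8-base run, in capitals, toward the 3′ end and differ before it.
miR-430a: gcuauuugUUGGGGUAg
miR-430b: gcuaucaagUUGGGGUAg
miR-430c: gcuucucuUUGGGGUAg
miR-430j: ugcuaucaaaUUGGGGUA
The strands of the miR-9 hairpin, which had the largest rises on Exiqon, have no such likeness to each other.
miR-9: ugguuaucuagcuguauga
miR-9*: aagcuagauaaccgaaagu
The miR-23 pair is shown because both are among the 6 miRNAs whose stage change differed between TCDD and DMSO embryos on Exiqon, and capitals mark the 1 base by which miR-23b differs from miR-23a.
miR-23a: ugccagggauuucca
miR-23b: uugccagggauuAcca

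The first design is a custom 1-colour Agilent array, on which a value is the spot signal relative to the 75th percentile of the array's detected probes (relative signal). The second is a 2-colour Exiqon array of locked nucleic acid probes, on which a value is the log2 ratio of the sample (Hy3 dye) over a universal reference pool of RNA (Hy5 dye), so it does not give an abundance. Of 490 Agilent probes, 226 to 277 were detected on each TCDD array, and of 255 Exiqon probes, 241 to 255. Replicate arrays of TCDD embryos correlated across miRNAs at 0.993 to 0.999 on Agilent and at 0.906 to 0.990 on Exiqon, and arrays of different stages at 0.882 to 0.899 on Agilent and at -0.613 to -0.507 on Exiqon. The labels name the dyes, so the direction of the Exiqon ratios was kept. Markers of muscle (miR-1, miR-206), neurons (miR-124, miR-9), skin (miR-203a, miR-205), red blood cells (miR-451, miR-144), endothelium (miR-126) and leukocytes (miR-142a-3p, miR-223) passed the detection filter of the Agilent arrays, as did the liver marker miR-122 and the smooth muscle marker miR-143 through their 60 hpf level. miR-145 and miR-150 did not pass it.

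Most of the miRNAs tested differed between the stages, and more were higher at 60 hpf than at 36 hpf. On Agilent, 110 of 134 miRNAs tested passed limma's test at a Benjamini-Hochberg adjusted p under 0.05 (82.1%), 68 of them higher at 60 hpf (50.7%) and 42 lower (31.3%). On Exiqon, 153 of 223 passed (68.6%), 116 higher (52%) and 37 lower (16.6%). In the scaling as reported, changes of at least 2-fold were nearly all rises. There were 36 up (26.9%) and 4 down (2.99%) on Agilent, and 29 up (13%) and 5 down (2.24%) on Exiqon. These 2-fold counts were not made under the other scalings, which shifted the median change. The 36 include let-7d, miR-122, miR-125a, miR-135c, miR-143, miR-182* and miR-218b, which were not well above background at 36 hpf. Those could hardly be called other than higher. Agilent detected 269, 248 and 277 probes on the TCDD arrays at 60 hpf, against 234, 226 and 241 at 36 hpf. The 3 arrays of one stage did not overlap those of the other for 114 miRNAs on Agilent (85.1%) and 152 on Exiqon (68.2%). The median change over all miRNAs tested was 0.21 log2 on Agilent and 0.14 log2 on Exiqon, with a median standard error (SE) of 0.08 and 0.04.

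The split between rises and falls depended on where an array was centred. Rises as large as 1.07 log2 on Agilent and 1.15 on Exiqon lost their call under another scaling. On Agilent, taking the 75th percentile over all probes, quantile normalization, or the median of the detected probes lowered the median of all changes by 0.33, 0.29 and 0.41 log2 and gave 48 rises and 62 falls, 46 and 59, or 43 and 67. On Exiqon, median centring in place of loess raised the median by 0.29 and gave 150 rises and 7 falls, while the Hy3 channel alone lowered it by 0.28 and gave 31 rises and 60 falls. Under every one of these scalings, 40 of the 68 Agilent rises, 36 of the 42 Agilent falls, 30 of the 116 Exiqon rises and 6 of the 37 Exiqon falls remained called in the same direction. On both designs at once that held for 23 rises and 4 falls. The 23 were let-7a, let-7c, let-7d, let-7g, miR-9, miR-9*, miR-124, miR-138, miR-218b, miR-125a, miR-125b, miR-125c, miR-181a*, miR-181c (whose Agilent probe is also listed under miR-181b), miR-96, miR-182, miR-182*, miR-183, miR-122, miR-192, miR-143, miR-135c and miR-199. Of these, let-7d, miR-218b, miR-125a, miR-182*, miR-122, miR-143 and miR-135c were not well above background on any Agilent TCDD array at 36 hpf. Their Agilent call could hardly be other than a rise under any scaling, so for them only the Exiqon calls bear on this. let-7c was not well above background on every Agilent TCDD array at 36 hpf either, and its signals there were near the floor (relative signal 0.0234). The 4 were miR-430a, miR-430b, miR-430c and miR-430j.

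**Figure D1:**
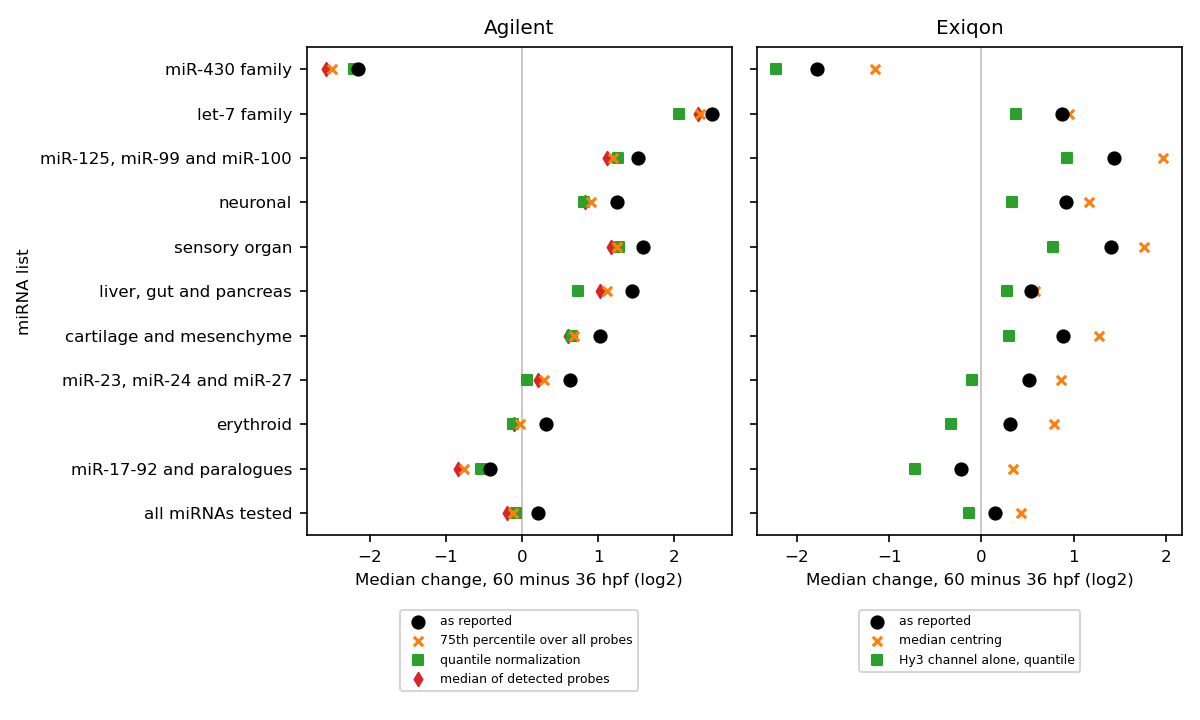
Median change from 36 to 60 hpf in TCDD embryos (log2, 60 minus 36 hpf, x axis) for lists of miRNAs (rows), on Agilent (left) and Exiqon (right), with each symbol a way of scaling the arrays. The miR-430 median stays below 0 and those of let-7, miR-125/99/100, neuronal, sensory, liver and cartilage lists stay above 0 under every scaling drawn, whereas the erythroid median on both designs, and the miR-23/24/27 and miR-17-92 medians on Exiqon, lie on either side of 0.

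The designs were set side by side for the 132 zebrafish miRNAs tested on both. Of these, 61 were called higher at 60 hpf on both and 24 lower on both, 6 were called in opposite directions, 18 were called on Agilent alone, 13 on Exiqon alone and 10 on neither. The opposite calls numbered 14, 17 and 19 under the other Agilent scalings and 27 under Exiqon median centring. The changes correlated across miRNAs at Pearson's r = 0.89 and Spearman's rho = 0.88, as a description over miRNAs that are not independent. The slope of the Exiqon on the Agilent change was 0.62, and among the 85 miRNAs called the same way on both, the change was larger in size on Agilent for 68. By the fitted changes in the scaling as reported, 23 miRNAs were called and at least 2-fold higher on both designs, and 4 were called and at least 2-fold lower. The rises counted include let-7d, miR-122, miR-125a, miR-135c, miR-143 and miR-218b, whose Agilent 36 hpf signals were near background. Their Agilent rise is only a lower bound, which for miR-135c is 1.88-fold.

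**Figure D2:**
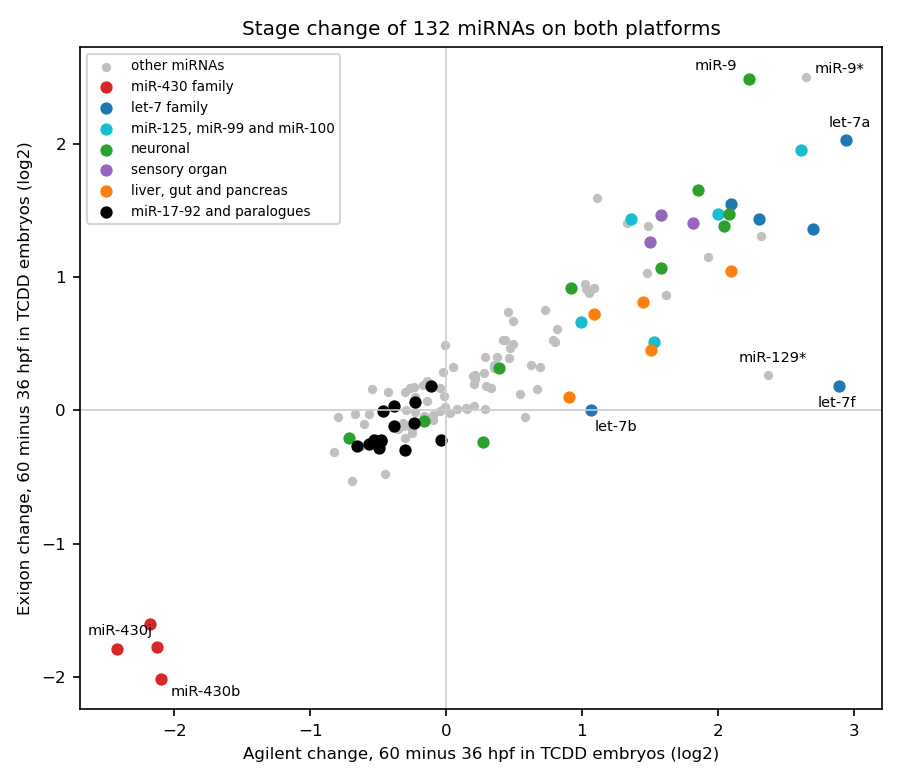
Change from 36 to 60 hpf in TCDD embryos on Agilent (x axis) against Exiqon (y axis), in log2, for the 132 miRNAs tested on both; each point is a miRNA and its colour gives its list. The 4 miR-430 members stand alone at the lower left, miR-9, miR-9* and let-7a lie at the upper right, and let-7b, let-7f and miR-129* rise far more on Agilent than on Exiqon.

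In the scaling as reported, the miR-430 family, the clearing agents of maternal messenger RNA, made up the falls of at least 2-fold on both designs. All 4 members tested on Agilent and all 5 tested on Exiqon were lower at 60 hpf, with a median change of -2.16 on Agilent and -1.78 on Exiqon. miR-430j had relative signals of 0.493, 0.483 and 0.483 in TCDD embryos at 60 hpf, against 2.63, 2.53 and 2.65 at 36 hpf on Agilent. Every 36 hpf array lay well above the 60 hpf arrays, and the change was -2.42 log2 (SE 0.05, adjusted p = 3.8e-12). On Exiqon its log2 ratios were -0.967, -1.19 and -1.07 at 60 hpf, against 0.661, 0.652 and 0.836 at 36 hpf, a change of -1.79 (SE 0.06, adjusted p = 1.8e-12).

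miR-430a had relative signals of 1.57, 1.76 and 1.49 at 60 hpf and 7.15, 6.79 and 7.12 at 36 hpf, and fell by 2.13 log2 on Agilent and by 1.78 on Exiqon. miR-430b, which had the brightest of the family's probes at 36 hpf, was saturated there on all 3 arrays. Its 60 hpf signals were 2.32, 2.37 and 2.20 against 36 hpf values of 10.2, 10.1 and 9.32, so on Agilent it was at least 4.29-fold lower at 60 hpf (adjusted p = 4.3e-10), and on Exiqon it fell by 2.02 log2. miR-430c fell by 2.18 log2 on Agilent and by 1.60 on Exiqon. miR-430i, which was not tested on Agilent, had Exiqon ratios of -1.0, -0.754 and -0.905 at 60 hpf against 0.439, 0.390 and 0.333 at 36 hpf, a fall of 1.27. The stages did not overlap for any of these members. The 4 members tested were still detected on the Agilent arrays at 60 hpf, where miR-430a and miR-430b remained above the 75th percentile of the detected probes. The probe positions of miR-430a, miR-430b and miR-430c lie together at chr4:34354028-34364465 (danRer5).

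**Figure D3:**
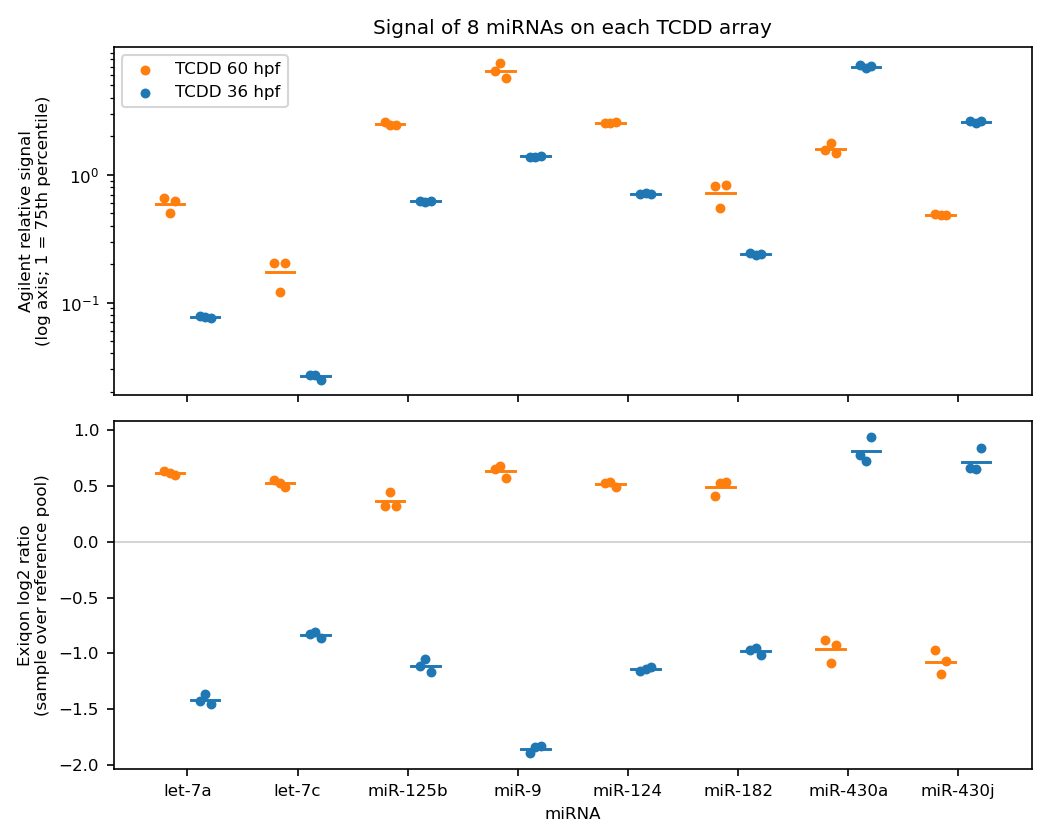
Value of 8 miRNAs on each TCDD array, 60 hpf left of 36 hpf, as relative signal on Agilent (upper panel, log axis) and log2 ratio over the reference pool on Exiqon (lower panel); points are arrays and bars are group means. miR-430a and miR-430j lie lower at 60 hpf and let-7a, let-7c, miR-125b, miR-9, miR-124 and miR-182 higher, with no overlap between the stages on either design.

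The let-7 family, whose members repress growth and stem cell genes in differentiating tissue, rose. Of 10 members held on Agilent, 6 passed the detection filter, let-7d through its 60 hpf level alone. At 36 hpf let-7b and let-7c were well above background on 2 of the 3 TCDD arrays, so that group did not admit them. These 6 were called higher, and on Exiqon 7 of 10 were, with a median change of 2.50 on Agilent and 0.88 on Exiqon. Of all miRNAs tested, 50.7% rose on Agilent and 52% on Exiqon. Under quantile normalization or the median of detected probes 5 of the 6 Agilent rises were called, and with the Hy3 channel alone 5 members rose on Exiqon and 1 fell. let-7a had relative signals of 0.662, 0.499 and 0.626 at 60 hpf, against 0.0779, 0.0769 and 0.0762 at 36 hpf. The stages lay far apart, with a change of 2.94 log2 (SE 0.12, adjusted p = 6.5e-10), the largest Agilent rise of the miRNAs called on both designs, although some others are given only as bounds. On Exiqon its ratios were 0.634, 0.618 and 0.593 at 60 hpf and -1.43, -1.36 and -1.45 at 36 hpf, a change of 2.03 (SE 0.04, adjusted p = 1.8e-14).

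let-7c had relative signals of 0.205, 0.122 and 0.205 at 60 hpf and 0.0273, 0.0272 and 0.0250 at 36 hpf, and rose by 2.70 log2 on Agilent and 1.36 on Exiqon. These 36 hpf signals lay near the floor of 0.0234, so the size of its Agilent rise is uncertain. let-7d had 0.126, 0.104 and 0.118 at 60 hpf and was not well above background on any 36 hpf array, so it was at least 4.31-fold higher (adjusted p = 2.4e-10), and its Exiqon rise was 1.43. The adjusted p of such a miRNA sets 60 hpf signals against values at or near the floor, and a miRNA that passed the detection filter through 60 hpf alone had to be higher there, so it is no support for the rise; Exiqon, which was filtered separately, gives its own value. let-7g rose by 2.10 on Agilent and 1.55 on Exiqon, and let-7e, tested on Exiqon alone, by 1.71. The designs parted on let-7f and let-7b. let-7f rose by 2.89 log2 on Agilent (adjusted p = 3e-10), but on Exiqon it had -0.12, 0.0397 and 0.125 at 60 hpf and -0.0777, -0.383 and -0.0424 at 36 hpf, which overlap (change 0.18, SE 0.09, adjusted p = 0.079). let-7b rose by 1.07 on Agilent (adjusted p = 0.0076), with a change of 0.00 on Exiqon (adjusted p = 0.96).

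The miR-125, miR-99 and miR-100 family, which shares genomic clusters with let-7, rose as well: all 5 members on both designs (miR-125a on Agilent through its 60 hpf level alone), with a median of 1.53 on Agilent and 1.44 on Exiqon. Of all miRNAs tested, 50.7% on Agilent and 52% on Exiqon rose. With the Exiqon Hy3 channel alone, 3 of the 5 were called. miR-125b had relative signals of 2.58, 2.44 and 2.45 at 60 hpf and 0.627, 0.607 and 0.628 at 36 hpf, a rise of 2.0 log2 (SE 0.04, adjusted p = 4.5e-12) that did not overlap, and it rose by 1.47 on Exiqon. miR-125a had 0.144, 0.140 and 0.146 at 60 hpf and was not well above background at 36 hpf, which made it at least 5.34-fold higher on Agilent (adjusted p = 2.4e-10). As for let-7d, that p is no support for the rise. The Exiqon rise of miR-125a was 1.96. miR-125c rose by 1.36 on Agilent and 1.44 on Exiqon, miR-99 by 1.53 and 0.52, and miR-100 by 1.0 and 0.67.

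Of the neuronal miRNAs, 7 of 10 tested rose and 2 fell on Agilent (50.7% and 31.3% over all miRNAs), and 11 of 15 rose and 2 fell on Exiqon (52% and 16.6%), at medians of 1.25 and 0.92. With the Exiqon Hy3 channel alone, 4 rose and 3 fell. One of the Agilent falls is miR-153c, whose probes were called in opposite directions. As the arrays measured whole embryos, more cells of a type and more of the miRNA per cell cannot be told apart, for these or any other tissue's miRNAs. miR-9, which acts in neural progenitors, had Exiqon ratios of 0.655, 0.679 and 0.572 at 60 hpf and -1.89, -1.84 and -1.83 at 36 hpf, a change of 2.49 (SE 0.04, adjusted p = 1e-15). Its Agilent signals were 6.48, 7.50 and 5.72 at 60 hpf, with saturated spots on 2 of the 3 arrays, and 1.39, 1.38 and 1.4 at 36 hpf, a change of 2.23 that saturation may understate. miR-9*, from the other strand of the hairpin, had signals of 4.27, 3.54 and 3.90 at 60 hpf against 0.621, 0.622 and 0.617 at 36 hpf, and rose by 2.65 on Agilent and 2.50 on Exiqon. Neither strand overlapped between the stages on either design.

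miR-124, which represses non-neuronal genes in neurons, had relative signals of 2.52, 2.56 and 2.60 at 60 hpf and 0.703, 0.720 and 0.70 at 36 hpf. Its rise was 1.85 log2 (SE 0.06, adjusted p = 9.9e-11) on Agilent and 1.66 on Exiqon, and the stages did not overlap. miR-138 rose by 2.08 on Agilent and 1.47 on Exiqon, and miR-7a by 1.58 and 1.07. miR-218a, a motor neuron miRNA, rose by 0.92 on both designs, and miR-218b, which was not well above background at 36 hpf, was at least 3.63-fold higher on Agilent and rose by 1.38 log2 on Exiqon. miR-153b went the other way on Agilent, with 0.273, 0.273 and 0.262 at 60 hpf and 0.446, 0.429 and 0.445 at 36 hpf, a fall of 0.71; on Exiqon it fell by 0.21 as reported and had a change of 0.35 under median centring. miR-129* had 0.235, 0.224 and 0.233 at 60 hpf and 0.0439, 0.0452 and 0.0447 at 36 hpf on Agilent, a rise of 2.37, against 0.27 on Exiqon (adjusted p = 0.0051).

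The sensory organ cluster of miR-96, miR-182 and miR-183, which is expressed in hair cells and photoreceptors, rose in full on both designs. The share that rose over all miRNAs tested was 50.7% on Agilent and 52% on Exiqon. miR-182 had relative signals of 0.813, 0.548 and 0.829 at 60 hpf and 0.243, 0.236 and 0.239 at 36 hpf, a rise of 1.59 log2 (SE 0.13, adjusted p = 4.4e-07) on Agilent, and 1.47 on Exiqon. miR-183 rose by 1.82 on Agilent and 1.41 on Exiqon, and miR-96 by 1.5 and 1.26. The stages did not overlap for any of the 3. miR-182*, of the other strand, was at least 2.85-fold higher on Agilent and rose by 0.87 on Exiqon. The probe positions of all 4 lie within chr4:14884996-14886141 (danRer5).

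miRNAs of liver, gut and pancreas rose in the 5 members that passed the Agilent filter, of 8 held, miR-122 through its 60 hpf level alone (median 1.45), and in 5 of 7 on Exiqon (median 0.53). Over all miRNAs tested, 50.7% rose on Agilent and 52% on Exiqon. With the Exiqon Hy3 channel alone, 2 of the 7 were called (median 0.27). miR-122, the main hepatocyte miRNA, had relative signals of 0.108, 0.0853 and 0.110 at 60 hpf and was not well above background at 36 hpf. It was at least 3.74-fold higher on Agilent (adjusted p = 5.9e-08), where, as for let-7d, the p is no support for the rise. On Exiqon it had ratios of 0.540, 0.656 and 0.530 at 60 hpf and -0.487, -0.488 and -0.447 at 36 hpf, a rise of 1.05. miR-192, a gut and liver miRNA, rose by 1.45 on Agilent and 0.81 on Exiqon. Of the pancreatic miRNAs, miR-217 rose by 1.09 and 0.72, and miR-216a by 1.51 and 0.45, the Exiqon value without its 36 hpf replicate 2. miR-216b rose by 0.91 on Agilent and had a change of 0.10 on Exiqon that missed the threshold.

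The cartilage and mesenchyme miRNAs rose in all 3 members on each design (50.7% and 52% over all miRNAs), at medians of 1.02 and 0.88. miR-199 had relative signals of 2.06, 1.97 and 2.06 at 60 hpf and 1.02, 0.949 and 1.03 at 36 hpf, a rise of 1.02 log2 (SE 0.06, adjusted p = 7.5e-09) with no overlap, and 0.95 on Exiqon. miR-214, which lies beside miR-199 in the genome, rose by 1.05 and 0.88, and miR-140, known from cartilage, by 0.46 and 0.74. Under each of the other Agilent scalings 2 of these 3 were called, and with the Exiqon Hy3 channel alone 1 was. miR-143, a smooth muscle miRNA, was at least 2.51-fold higher on Agilent and had Exiqon ratios of 0.506, 0.327 and 0.489 at 60 hpf against -1.01, -0.963 and -0.872 at 36 hpf, a rise of 1.39. The endothelial miR-126 had relative signals of 1.05, 1.10 and 1.02 at 60 hpf and 1.08, 1.03 and 1.09 at 36 hpf, which overlap (change -0.01, adjusted p = 0.8). On Exiqon its change of 0.11 was called as a rise, but it was -0.48 with the Hy3 channel alone.

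The miR-181 family, found in brain and lymphoid cells of vertebrates, rose in both members tested on Agilent and all 3 on Exiqon (50.7% and 52% over all miRNAs). miR-181a had relative signals of 1.82, 1.91 and 1.85 at 60 hpf and 0.480, 0.481 and 0.508 at 36 hpf, without overlap, a rise of 1.93 log2 (SE 0.05, adjusted p = 2.8e-11), and 1.15 on Exiqon. Its Exiqon call was lost with the Hy3 channel alone, where 2 of the 3 members were called. The Agilent probe of miR-181c is listed under both miR-181b and miR-181c, so its Agilent value cannot be assigned to either alone. miR-181a* rose by 2.32 on Agilent and 1.31 on Exiqon. miR-103 rose by 1.10 and 0.73 and miR-107 by 1.03 and 0.91. With the Hy3 channel alone, 0 of the 8 miR-15, miR-16, miR-103 and miR-107 members tested on Exiqon rose and 3 fell. miR-135c was at least 1.88-fold higher on Agilent and rose by 1.59 log2 on Exiqon.

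**Figure D4:**
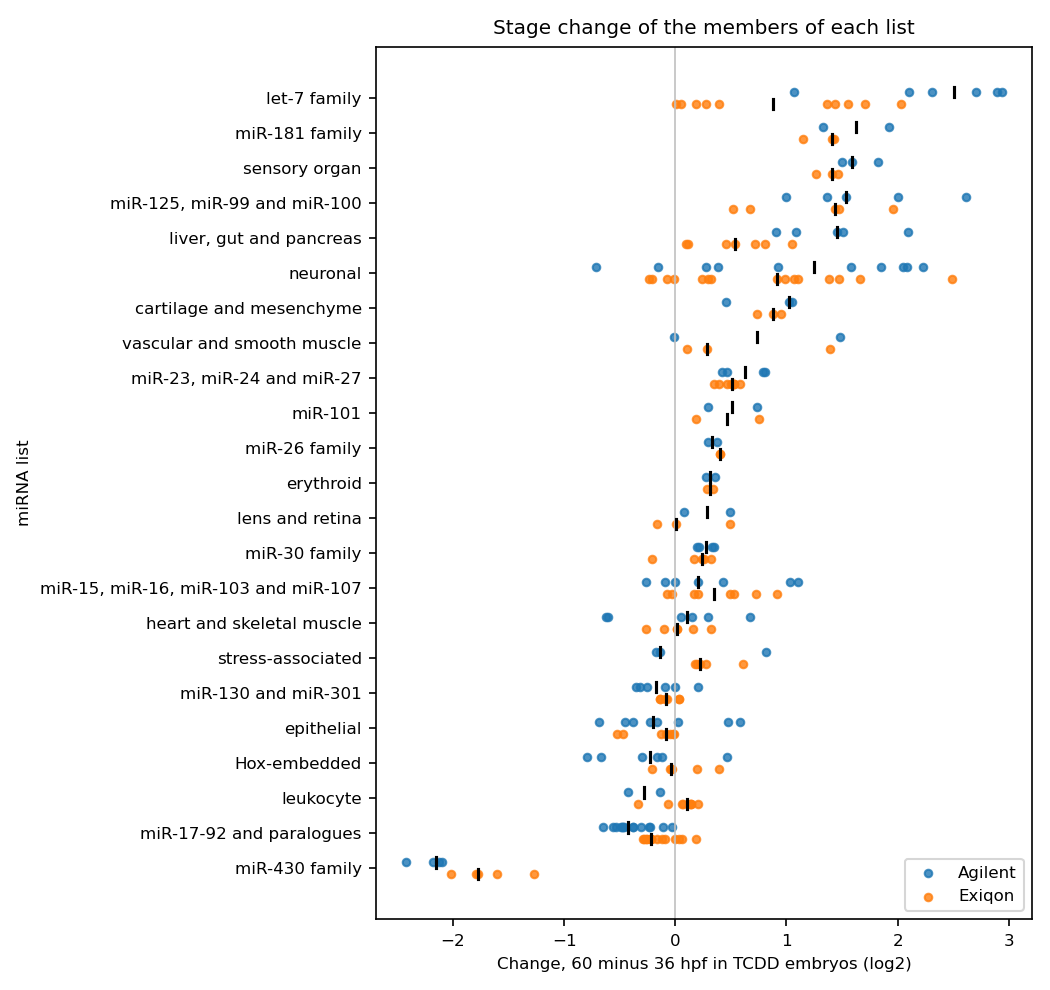
Change of each tested member from 36 to 60 hpf in TCDD embryos (log2, 60 minus 36 hpf, x axis) by list (y axis), blue on Agilent and orange on Exiqon; points are miRNAs, called or not, and black bars are list medians. In the scaling as reported, which is drawn, the miR-430 members are the only ones below -1, and the sensory and miR-181 members all lie above 1.

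Falls outside the miR-430 family were smaller. The miR-17-92 cluster and its paralogues, which promote proliferation, were lower in 12 of 14 members tested on Agilent (median -0.42), against 31.3% over all miRNAs. On Exiqon 10 of 15 fell and 1 rose (median -0.22), against 16.6% and 52% over all. Under median centring, however, 9 rose and 0 fell there, while on Agilent 11 to 14 fell and 0 rose under the other scalings. miR-19a had relative signals of 2.76, 2.54 and 2.81 at 60 hpf and 4.25, 4.10 and 4.39 at 36 hpf, which do not overlap, a fall of 0.65 log2 (SE 0.06, adjusted p = 6.3e-07). On Exiqon it fell by 0.26 as reported and had a change of 0.34 under median centring. miR-17a*, from the other strand of miR-17a, fell by 0.82 on Agilent and by 0.32 on Exiqon, where median centring gave 0.01.

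In the scaling as reported, the skin miRNAs miR-203a and miR-205 did not move together. miR-203a, which limits the stem cell state in epidermis, had relative signals of 0.874, 0.772 and 0.740 at 60 hpf and 1.34, 1.32 and 1.19 at 36 hpf, a fall of 0.69 log2 (SE 0.08, adjusted p = 6.4e-06) without overlap. On Exiqon it fell by 0.53 as reported, with a change of 0.05 under median centring. miR-205, another epidermal miRNA, had 3.11, 3.18 and 3.06 at 60 hpf and 3.11, 2.94 and 3.13 at 36 hpf, which overlap, and a change of 0.03 (adjusted p = 0.63) on Agilent and -0.02 on Exiqon. However, miR-205 was called lower with the Agilent 75th percentile over all probes (-0.31) and with the median of detected probes (-0.39). Under Exiqon median centring it was called higher (0.53). miR-200c, with a probe of its own on Agilent alone, rose by 0.47 there, a call lost under another scaling, with a change as low as 0.00010. Of the epithelial list, 2 rose and 5 fell of 8 on Agilent (50.7% and 31.3% over all miRNAs). On Exiqon 0 rose and 4 fell of 7 (52% and 16.6% over all), where median centring gave 5 rises and 0 falls.

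Of 6 muscle miRNAs, 3 rose and 2 fell on Agilent, near the 50.7% and 31.3% over all miRNAs, and 2 rose and 2 fell on Exiqon. The counts were 1 and 4 on Agilent with the 75th percentile over all probes or the median of detected probes, and on Exiqon 5 and 0 under median centring and 0 and 3 with the Hy3 channel alone. miR-1 had relative signals of 3.29, 2.97 and 3.27 at 60 hpf and 2.58, 2.53 and 2.68 at 36 hpf. These did not overlap (change 0.29, SE 0.06, adjusted p = 0.0014), but the change was -0.05 with the 75th percentile over all probes and -0.13 with the median of detected probes, and on Exiqon it was 0.01 (adjusted p = 0.74). miR-206, a skeletal muscle miRNA, fell by 0.62 on Agilent, without 1 of the 36 hpf arrays whose spots were left out and with saturated spots on 1 of the 60 hpf arrays, and by 0.27 on Exiqon, where median centring gave 0.34. miR-133c fell by 0.60 and 0.10, with 0.18 under median centring. Among the brightest unsaturated Agilent probes, those of miR-17a, miR-130c, miR-133b, miR-205 and miR-1 had changes with a 95% confidence interval within 0.5 log2 of 0. Their changes were -0.30, -0.31, 0.15, 0.03 and 0.29. This held for the scaling as reported: with the median of detected probes miR-17a was -0.72 and miR-130c -0.73.

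Among miRNAs tested on Exiqon alone, the largest falls after miR-430i were those of miR-733 and miR-202. Agilent also carries probes for these miRNAs, but they did not pass its detection filter. Their falls therefore rest on Exiqon, whose own filter let through 223 of 224 names. miR-733 had ratios of -0.613, -0.401 and -0.515 at 60 hpf and 0.309, 0.433 and 0.142 at 36 hpf, a fall of 0.80 log2 without overlap, although the call was lost under another scaling, with a change of -0.21. miR-202, a gonadal miRNA in vertebrates, had -0.258, -0.144 and -0.395 at 60 hpf and 0.221, 0.0864 and 0.251 at 36 hpf, a fall of 0.45. That fall was called under every Exiqon scaling.

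The 6 miRNAs called in opposite directions all fell on Agilent and rose on Exiqon, by small amounts. The 5 with the firmest calls were miR-456 (-0.30 on Agilent and 0.14 on Exiqon), miR-21 (-0.17 and 0.19), miR-142a-3p (-0.43 and 0.14), miR-30e* (-0.24 and 0.18) and miR-210 (-0.14 and 0.22). With the Hy3 channel alone, the Exiqon changes of miR-456, miR-21, miR-142a-3p and miR-210 were -0.28, -0.34, -0.40 and -0.18.

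The calls were also set out by position. Among tested miRNAs, 80 lay with another within 20000 bases by the probe positions in the Agilent files (danRer5), in 37 distinct sets. Some sets hold only the 2 strands of a hairpin: those of miR-9, miR-10a, miR-140, miR-181a, miR-199, miR-203b and miR-210. A shared direction in those is not one of separate miRNAs, and they enter the strand counts below again. On Agilent 33 sets had at least 2 called members, which all rose in 22, all fell in 9 and were mixed in 2; on Exiqon 27 sets had, with counts of 20, 6 and 1. No chance value stands beside these counts, and 50.7% of all miRNAs tested rose and 31.3% fell on Agilent, and 52% and 16.6% on Exiqon. Since 43 of the 134 probes tested map to several places, a miRNA can belong to several sets. let-7d with miR-125a at chr16:23399815-23416908, and let-7c, miR-125c and miR-99 at chr15:30329546-30334949, rose in full on both designs. However, let-7d and miR-125a were not well above background on any Agilent TCDD array at the earlier stage. Their Agilent calls could hardly be other than rises, although their set is counted among the 22. For that set only the Exiqon calls bear on a shared direction. On Agilent the 7 tested miRNAs at chr8:45337794-45338621, of the miR-17-92 kind, fell in full, and 5 of them fell on Exiqon. Of the hairpins with both strands tested, 7 of 11 on Agilent had both strands called in the same direction and 2 in opposite directions, against 11 of 26 and 0 on Exiqon. Only 1 strand was called in 2 pairs on Agilent and 12 on Exiqon, and neither strand in 0 and 3. The 7 include miR-182 with miR-182*, and the Agilent call of miR-182* could hardly be other than a rise.

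The stage change in DMSO embryos was set beside that in TCDD embryos, and the difference between the 2 changes was tested in the same fit. In DMSO embryos 106 of 134 miRNAs were called on Agilent (79.1%) and 150 of 223 on Exiqon (67.3%). miR-430j fell by 2.42 log2 in TCDD and by 2.30 in DMSO embryos, and let-7a rose by 2.94 and 2.96 (Agilent). The difference passed the test for 0 of 134 miRNAs on Agilent by limma, where 12 had an unadjusted p under 0.05 (8.96%). On Exiqon it passed for 6 of 223 (2.69%; 34, or 15.2%, had an unadjusted p under 0.05), each with a larger value in TCDD embryos: miR-23a, miR-23b, miR-24, miR-27e, miR-101a and miR-146a. The image names in the file headers mark a second scan for all 3 DMSO arrays at 36 hpf and a first scan for the others, so for this difference scan and group cannot be told apart. Of the TCDD arrays, 3 were imaged on a later day than all other Exiqon arrays; with the image day as a block 9 miRNAs were called, including all 6, and on the first day alone 5, including 4 of them (miR-23a, miR-23b, miR-24 and miR-146a). That day holds 1 TCDD array at 60 hpf, which the fit assumes to vary like the other groups. Without 1 array the count was 1 to 15, and miR-23a was called in each of the 12 such fits. It was 15 without TCDD 60 hpf replicate 2 and 1 without TCDD 36 hpf replicate 1, DMSO 60 hpf replicate 1 or DMSO 36 hpf replicate 3. No difference was called under median centring or with the Hy3 channel alone, where that of miR-23a was -0.04.

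miR-23, miR-24 and miR-27 are made from shared clusters and are known from endothelium. All 4 members tested on Agilent and all 8 on Exiqon rose in TCDD embryos (medians 0.63 and 0.51), against 50.7% and 52% over all miRNAs. However, none was called under Agilent quantile normalization or with the Exiqon Hy3 channel alone, where the median was -0.10. miR-23a had Exiqon ratios of 0.195, 0.276 and 0.290 in TCDD embryos at 60 hpf, against -0.253, -0.271 and -0.298 in TCDD embryos at 36 hpf. In DMSO embryos its ratios were -0.0642, -0.112 and -0.0784 at 60 hpf, against -0.355, -0.304 and -0.348 at 36 hpf. The stages did not overlap in either exposure, and the rise was 0.53 log2 in TCDD and 0.25 in DMSO embryos, a difference of 0.28 (SE 0.05, adjusted p = 0.0146).

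miR-23b rose by 0.53 in TCDD and 0.28 in DMSO embryos (difference 0.24, adjusted p = 0.0146), and miR-27e by 0.59 and 0.28 (difference 0.30, adjusted p = 0.0323). miR-24 rose by 0.47 in TCDD and 0.24 in DMSO embryos (difference 0.22, adjusted p = 0.0477). miR-101a, of another family, rose by 0.75 and 0.54 (difference 0.21, adjusted p = 0.0477). miR-146a, an inflammation-linked miRNA, rose by 0.14 in TCDD and fell by 0.13 in DMSO embryos (difference 0.28, adjusted p = 0.0477). On Agilent, miR-23a had 0.162, 0.211 and 0.172 in TCDD embryos at 60 hpf, against 0.103, 0.101 and 0.110 at 36 hpf. In DMSO embryos it had 0.113, 0.118 and 0.115 at 60 hpf, against 0.115, 0.0936 and 0.0825 at 36 hpf, so that the TCDD stages did not overlap and the DMSO stages did. The Agilent differences were 0.52 for miR-23a (adjusted p = 0.25), 0.38 for miR-24 (adjusted p = 0.24), 0.13 for miR-23b (adjusted p = 0.65) and 0.14 for miR-101a (adjusted p = 0.91), and miR-27e and miR-146a were not tested there.

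The red blood cell miRNA miR-451 had relative signals of 0.825, 0.738 and 0.775 in TCDD embryos at 60 hpf, against 0.652, 0.633 and 0.641 at 36 hpf. In DMSO embryos it had 0.934, 0.897 and 0.905 at 60 hpf, against 0.601, 0.621 and 0.597 at 36 hpf. The stages did not overlap in either exposure, with a rise of 0.28 log2 in TCDD and 0.59 in DMSO embryos on Agilent (difference -0.31, adjusted p = 0.074). On Exiqon the rise was 0.28 in TCDD and 0.52 in DMSO embryos (difference -0.24, adjusted p = 0.061), and with the image day as a block the difference was -0.21 (adjusted p = 0.0424). With the 75th percentile over all probes or the median of detected probes on Agilent, the TCDD change was -0.06 and -0.14, and with the Exiqon Hy3 channel alone it was -0.42. miR-144, its cluster partner at chr5:41283987-41284148, rose by 0.35 on Agilent and 0.34 on Exiqon in TCDD embryos. Its change was -0.28 under Agilent quantile normalization, -0.07 with the Agilent median of detected probes and -0.24 with the Hy3 channel alone. For miR-144 no difference between TCDD and DMSO embryos was called on either design under any setting tried.

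**Figure D5:**
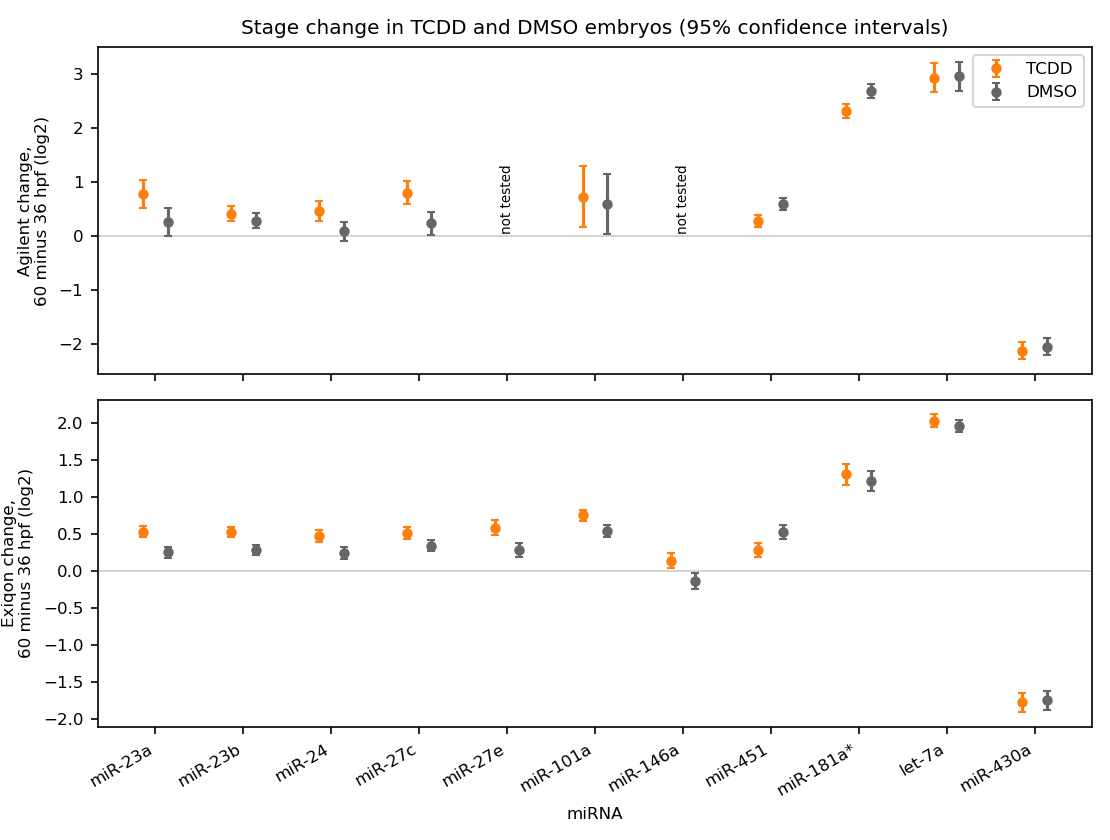
Change from 36 to 60 hpf (log2, 60 minus 36 hpf, y axis) in TCDD embryos (orange) and DMSO embryos (grey) for 11 miRNAs, on Agilent (upper panel) and Exiqon (lower panel); points are estimates and bars 95% confidence intervals. On Exiqon the TCDD change lies above the DMSO change for miR-23a, miR-23b, miR-24 and miR-27e and below it for miR-451, and for let-7a and miR-430a the intervals of the 2 exposures overlap on both designs.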

How the data were processed

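MicroRNAs were measured in whole embryos on 12 Agilent and 12 Exiqon arrays, 3 for each stage and exposure. The deposited Agilent files hold spot intensity from 1 dye, background-subtracted with Feature Extraction 9.5 and not normalized between arrays, per the file headers. The deposited Exiqon files hold the spot and background intensity of each dye from an image analysis program, version 8.0.1 or, on 3 TCDD arrays of a later day, 7.0.0, per the file headers. Spot flags are the programs' other deposited columns. The deposited Exiqon value table holds log2 ratios whose scale and centring the authors do not state; it correlated at 0.901 to 0.973 with the ratios computed here, with column medians of -0.125 to 0.255. The deposited Agilent value table equals the processed intensity. Probe names follow miRBase 16 on Agilent and miRBase 12 on Exiqon, per the labels.

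From these, Agilent outlier spots were left out (3.05 to 5.58% of spots on the TCDD arrays). Each array was scaled to the 75th percentile of its 185 commonly detected probes (well above background on every array), floored at the 1st percentile of scaled well-above-background spots (relative signal 0.0234, a level set after the data were seen), averaged on the log2 scale, and the brightest probe was kept for each name. A miRNA was tested if detected on all 3 arrays of a group. On Exiqon, flagged spots (4.51 to 18.3%) were left out, followed by normexp background correction (offset 50), loess within each array and averaging of 4 spots; the Hy3 page was identified by its landmark spots. limma 3.58.1 (R 4.3.3) fitted 4 group means over the 12 arrays of a platform, with two-sided moderated tests and Benjamini-Hochberg adjustment over all miRNAs tested on that platform (134 and 223). Exact tests of 3 against 3 cannot go below p = 0.1 and were not used. The precision is limited by 3 arrays a group. The fit was tested on simulated data with known changes. Within each slide or image day every call kept its sign, which is a description: the calls came from the same arrays, and 1 slide and both days have a stage with 1 TCDD array. Where a name had several Agilent probes tested (113 names), the sign differed between probes for 5.

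miRNAs named are the 10 largest rises and 10 largest falls called on both platforms, the 3 largest of each among those tested on 1 platform, up to 5 called in opposite directions, those whose stage change differed between exposures, the 5 brightest Agilent probes with an interval within 0.5 of 0, and list members. The members and lists were chosen with earlier results of these data known. Alternatives covered scaling, background, filters, probes, batches, replicate block and left-out arrays.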

Additional observations from a re-analysis of the deposited data

Results flagged for a closer look

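For 6 miRNAs the change from 36 to 60 hpf differed between TCDD and DMSO embryos by the test of the difference itself on Exiqon (limma, adjusted p under 0.05). The differences, TCDD minus DMSO, were 0.30 log2 for miR-27e, 0.28 for miR-23a and also for miR-146a, 0.24 for miR-23b, 0.22 for miR-24 and 0.21 for miR-101a. On Agilent none of the 4 tested there passed. Of the 6, 4 belong to the miR-23, miR-24 and miR-27 families, of which 8 members were tested on Exiqon. The share called over all miRNAs tested there was 6 of 223 (2.69%). miR-27a, miR-27b, miR-27c and miR-27d were not called. miR-23a and miR-23b differ by 1 base over their Agilent probes, and each maps within 20000 bases of miR-24. The Exiqon probe sequences were not compared. The part of the second scan of the DMSO arrays at 36 hpf in these differences was not tested.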

How the results depend on the processing

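Of the stage calls, 110 on Agilent became 92 to 115 over 13 alternatives and lay within that range without 1 array, and 153 on Exiqon became 66 to 158 over 12 alternatives and 142 to 153 without 1 array. Similar counts did not mean the same calls. With the Agilent 75th percentile over all probes, quantile normalization or median of detected probes, 90, 81 and 85 calls were shared in the same direction. Another 1, 3 and 6 were opposite. Under Exiqon median centring 117 were shared and 12 were opposite. On Exiqon the lowest were 91 with the Hy3 channel alone and 66 with plain subtraction, against which 63 calls were shared in the same direction in each. The 85 miRNAs called the same way on both platforms became 53 and 45 under those settings, and 80 to 85 without 1 array. Of differences between TCDD and DMSO embryos, Agilent had 0, but 1 under quantile normalization (miR-451), 2 with the median of detected probes (miR-181a* and miR-451), 2 with probes detected on all 12 arrays, and 0 to 2 without 1 array (2 without TCDD 60 hpf replicate 1). Exiqon had 6, but 0 under median centring, 0 with Hy3 alone, 0 with plain subtraction, 2 with the deposited table (miR-23a and miR-23b), and 1 to 15 without 1 array. Whether the replicate numbers pair the samples was not settled. Deviations of same-numbered TCDD arrays of the 2 stages correlated at 0.28, 0.07 and 0.19 on Agilent, and at -0.29, 0.31 and 0.22 on Exiqon. These were not set against arrays of unlike number. The fit with the replicate block called 109 miRNAs on Agilent, 108 of them shared, and 152 on Exiqon, 151 shared, with 0 and 4 differences. Some changes turned sign. Among them, as reported, were miR-101a at 0.73 on Agilent, and miR-203a at -0.53 and miR-23a at 0.53 on Exiqon. With the Agilent 75th percentile over all probes, miR-1 was -0.048, miR-133b -0.19, miR-205 -0.31 and miR-451 -0.059. Under Agilent quantile normalization, miR-101a was -0.032, miR-130c 0.033, miR-144 -0.28, miR-20a 0.021 and miR-24 -0.071. With the Agilent median of detected probes, miR-1 was -0.13, miR-133b -0.27, miR-144 -0.065, miR-205 -0.39, miR-23b -0.00058 and miR-451 -0.14. Under Exiqon median centring, miR-130c was 0.51, miR-133c 0.18, miR-153b 0.35, miR-17a 0.32, miR-17a* 0.012, miR-196a 0.20, miR-19a 0.34, miR-203a 0.047, miR-203b 0.11, miR-205 0.53, miR-206 0.34 and miR-20a 0.39. With Exiqon Hy3 alone, let-7b was -0.65, miR-1 -0.26, miR-126 -0.48, miR-142a-3p -0.40, miR-144 -0.24, miR-21 -0.34, miR-210 -0.18, miR-23a -0.19, miR-23b -0.080, miR-24 -0.26, miR-27e -0.037, miR-451 -0.42 and miR-456 -0.28, and the differences of miR-101a, miR-23a, miR-24 and miR-27e were -0.24, -0.038, -0.15 and -0.052. With Exiqon plain subtraction, miR-126 was -0.16 and miR-21 -0.026. The cause of these shifts was not tested. The first Agilent slide alone has 1 array a group and gave values without a test. Agilent signals near the background limit what can be said of let-7d, miR-122, miR-125a, miR-135c, miR-143, miR-182* and miR-218b at 36 hpf to a bound.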

Other observations

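The miR-30 family rose in 3 of 4 members tested on Agilent (median 0.27) and rose in 4 and fell in 1 of 5 on Exiqon (median 0.24), but under the other Agilent scalings 0 rose and up to 2 fell, and with the Exiqon Hy3 channel alone 0 rose and 4 fell. Both miR-26 members rose on both designs (medians 0.33 and 0.40), but neither was called with the Agilent 75th percentile over all probes (median -0.0057) or median of detected probes (-0.086), nor with the Hy3 channel alone (-0.25). Both miR-29 members rose on Exiqon (median 0.32, and -0.025 with the Hy3 channel alone, where neither was called) and were not tested on Agilent. The miR-10 and miR-196 miRNAs, which lie within Hox clusters, rose in 1 and fell in 4 of 6 on Agilent (median -0.23) and rose in 2 and fell in 1 of 6 on Exiqon (median -0.04), where median centring gave 4 rises and 0 falls and the Hy3 channel alone 0 and 4. Of the leukocyte list, 2 of 8 members passed the Agilent detection filter, and on Exiqon 4 rose and 1 fell of 8 (median 0.10), against 0 and 1 with the Hy3 channel alone. The Exiqon leukocyte counts lie near the 52% and 16.6% that rose and fell over all miRNAs tested there. On Agilent 50.7% of all miRNAs tested rose and 31.3% fell. Another scaling moved the median of all miRNAs by -0.41 to -0.29 on Agilent and by -0.28 to 0.29 on Exiqon.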
